A study of Mus musculus with 15 samples.

Results

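A set of 10 genes that mark group 1 innate lymphoid cells (ILC1) and natural killer (NK) cells were followed in ILC2s of the intestinal lamina propria (LP) and in ILC2 precursors (ILC2p) of the bone marrow (BM). The 10 members were chosen by gene symbol, with earlier results of these data known, out of 24690 entries in each library's table. They comprise the transcription factor genes Tbx21 and Eomes, the receptor genes Ncr1 and Il12rb2, and the cytokine and chemokine genes Ifng and Ccl5. The others are the granzyme genes Gzma, Gzmb and Gzmc and the perforin gene Prf1. RNA sequencing covered 15 libraries in 2 labelled experiments for each cell type. LP ILC2s had 4 WT and 3 Tgfbr2-/- libraries, and BM ILC2p had 4 WT and 4 Tgfbr2-/- libraries. Whether deletion of the TGF-β receptor chain TβR2 goes with a change in these genes is the question that the genotype comparisons address.

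The sorted cells of every group, WT included, came from mice on the C57BL/6 background. These mice carried floxed Tgfbr2 together with ER-Cre, a Cre recombinase that tamoxifen activates. The background of the CD45.1+ hosts and CD45.1+ marrow described below was not stated. The promoter that drives ER-Cre was not given in the sources used here. For LP ILC2s, mice of 8 to 12 weeks received sunflower oil (WT) or 1 mg tamoxifen per day (Tgfbr2-/-) for 5 days, and CD45+Lin-CD127+Sca-1+CD25+KLRG1+ cells were sorted 1 day after the last dose. For BM ILC2p, CD45.2+ marrow of oil-treated (WT) or tamoxifen-treated (Tgfbr2-/-) donors (same age, dose and days) was mixed with CD45.1+ marrow and put into lethally irradiated CD45.1+ hosts. CD45.2+Lin-CD127+α4β7+CD25+ cells were sorted from these chimeras 6 weeks later. The sources used here do not say whether animals were pooled or whether replicates came from separate animals, so the p-values measure only the spread between these libraries, which may be technical. Counts on genes totalled 12167066 to 32114265 per library in LP ILC2s and 10957021 to 35961215 in BM ILC2p. Levels are given as the authors' RPKM (reads per kilobase of transcript, scaled to sequencing depth), which takes account of gene length, and are listed with experiment 1 first and experiment 2 second.

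ILC1s and NK cells are the innate counterparts of type 1 helper and cytotoxic T cells. The T-box factors T-bet (Tbx21) and Eomesodermin (Eomes) direct their programs, IL-12 acting through its receptor induces interferon-γ, and cytotoxic granules release perforin, which opens the target cell's membrane, and granzymes, serine proteases that enter through it. ILC2s depend on GATA3 and are known for IL-5 and IL-13, and TGF-β is known to restrain cytotoxic genes in NK and T cells.

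The granzyme genes lie in clusters, and Gzmb and Gzmc share theirs on chromosome 14 with Gzmd, Gzme, Gzmf, Gzmg and Gzmn. The 250 bases before the start of 5 granzyme genes are shown because Gzmc, Gzme and Gzmg were the members of this cluster with the largest differences between genotypes in LP ILC2s, with Gzmb as their neighbour and Gzma as a granzyme gene on another chromosome. The sequences are from RefSeq (GRCm38.p6), all on the minus strand and printed 5′ to 3′, at chr14:56262335-56262584 (Gzmb), chr14:56234658-56234907 (Gzmc), chr14:56120626-56120875 (Gzme), chr14:56159580-56159829 (Gzmg) and chr13:113100982-113101231 (Gzma). Capitals mark matches, on either strand, to the letters TGTGGT (Runx), TCACACC (T-box), TGANTCA (AP-1) or CAGACA (Smad).
Gzmb: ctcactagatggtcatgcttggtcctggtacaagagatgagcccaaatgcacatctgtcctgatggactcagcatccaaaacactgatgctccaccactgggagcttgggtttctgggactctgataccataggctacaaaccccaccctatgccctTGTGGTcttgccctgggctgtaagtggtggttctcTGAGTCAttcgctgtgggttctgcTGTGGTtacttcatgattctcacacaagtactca
Gzmc: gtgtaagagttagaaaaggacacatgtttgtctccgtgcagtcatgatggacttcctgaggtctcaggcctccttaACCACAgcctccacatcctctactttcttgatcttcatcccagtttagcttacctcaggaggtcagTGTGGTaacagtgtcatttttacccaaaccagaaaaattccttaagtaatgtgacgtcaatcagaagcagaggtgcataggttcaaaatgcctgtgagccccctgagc
Gzme: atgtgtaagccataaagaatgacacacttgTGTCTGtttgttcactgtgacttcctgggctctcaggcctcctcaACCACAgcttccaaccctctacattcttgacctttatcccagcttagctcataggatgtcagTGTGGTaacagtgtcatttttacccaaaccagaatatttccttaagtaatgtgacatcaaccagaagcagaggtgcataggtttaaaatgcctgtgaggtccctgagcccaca
Gzmg: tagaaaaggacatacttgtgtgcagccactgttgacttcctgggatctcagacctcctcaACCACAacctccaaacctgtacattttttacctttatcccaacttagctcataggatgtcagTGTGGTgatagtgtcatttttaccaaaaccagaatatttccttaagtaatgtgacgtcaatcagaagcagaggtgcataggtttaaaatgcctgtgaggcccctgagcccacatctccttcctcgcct
Gzma: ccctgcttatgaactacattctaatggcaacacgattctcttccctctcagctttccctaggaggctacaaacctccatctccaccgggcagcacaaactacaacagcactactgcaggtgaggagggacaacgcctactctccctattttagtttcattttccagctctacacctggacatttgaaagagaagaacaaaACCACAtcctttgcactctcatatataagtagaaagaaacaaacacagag

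Runx letters were found in 14% of 32851 promoters of this length, and in 5 of the 9 members that had a promoter entry (Gzma, Gzmb, Gzmc, Prf1 and Ncr1). Gzmc, Gzme and Gzmg each held 2 of these matches, 1 on each strand. AP-1 letters were found in Gzmb among these 5 sequences (6.75% of all promoters), Smad letters in Gzme (17.1%), and T-box letters in none of them (3.33%). Upstream sequence was 81.8% identical between Gzmc and Gzme, 80.8% between Gzme and Gzmg and 74.5% between Gzmc and Gzmg, while every pair that included Gzma or Gzmb was 45.6% to 49.6% identical. A match describes the letters only and marks no binding site. The transcripts are alike as well, since 20.5% of the 50-base windows of Gzme and 19.8% of those of Gzmg occur in another granzyme transcript, against 3.95% for Gzmc and 0 for Gzmb and Gzma. Reads with several hits were kept by the authors, so counts of Gzme and Gzmg are uncertain.

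Some libraries stood apart from their labels or from the others. Tgfbr2, the targeted gene, did not separate the genotypes. In LP ILC2s its level was 36.1, 57.9, 36.5 and 51.4 RPKM in the WT libraries and 49.1, 40.5 and 23.9 RPKM in the libraries labelled Tgfbr2-/-. In BM ILC2p it was 0.146, 59.1, 25.3 and 49.0 RPKM in WT and 16.9, 26.3, 6.82 and 38.7 RPKM in Tgfbr2-/- libraries. The groups overlapped in both cell types, and RPKM covers the whole transcript, deleted exons and the rest, so each genotype below is that of the label.

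Of the genes whose median reached 50 CPM (counts scaled to the library's depth) in the other libraries of the same cell type, 1.54% to 14% were under 1 CPM in any given BM ILC2p library (median 6.18%), against at most 0.0273% in LP ILC2s.

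Markers of the labelled cells were present. Summed over 9 ILC2 markers, LP ILC2s reached 2646 to 3902 RPKM, with Gata3 the most abundant. BM WT libraries reached 1858 to 2160 RPKM and BM Tgfbr2-/- libraries 686 to 904 RPKM, with Il5 at 0 in 4, Il13 at 0 in 3 and Areg at 0 in 2 of the 8 BM libraries. Klrg1, part of the LP gate, was at 520 to 830 RPKM in LP ILC2s and 43.3 to 143 RPKM in BM ILC2p, and Ptprc, which encodes CD45, was present in all 15 libraries (55.4 to 166 RPKM). T cell markers summed to 298 to 435 RPKM in LP ILC2s, 290 to 391 RPKM in BM WT and 73.3 to 166 RPKM in BM Tgfbr2-/- libraries. The adaptor gene Lat led in LP ILC2s, where Cd3g was at 27.7 to 88.4 RPKM and Cd3e at 1.54 to 13.2 RPKM. Cd4 was at 0.470 to 27.7, Cd8b1 at 0.0578 to 11.8, Cd3d at 0.0615 to 3.66 and Cd5 at 0 to 1.91 RPKM there. Cd8a was at 0 in every LP library. The part of T cells in the members' levels was not tested. B and plasma cell markers summed to 105 to 266 RPKM in LP WT and 59.7 to 94.8 RPKM in LP Tgfbr2-/- libraries. Plasmacytoid dendritic cell markers summed to 63.8 to 305 RPKM over all libraries. BM Tgfbr2-/- libraries also held markers of other cells, which are given beside Gzma.

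**Figure D1:**
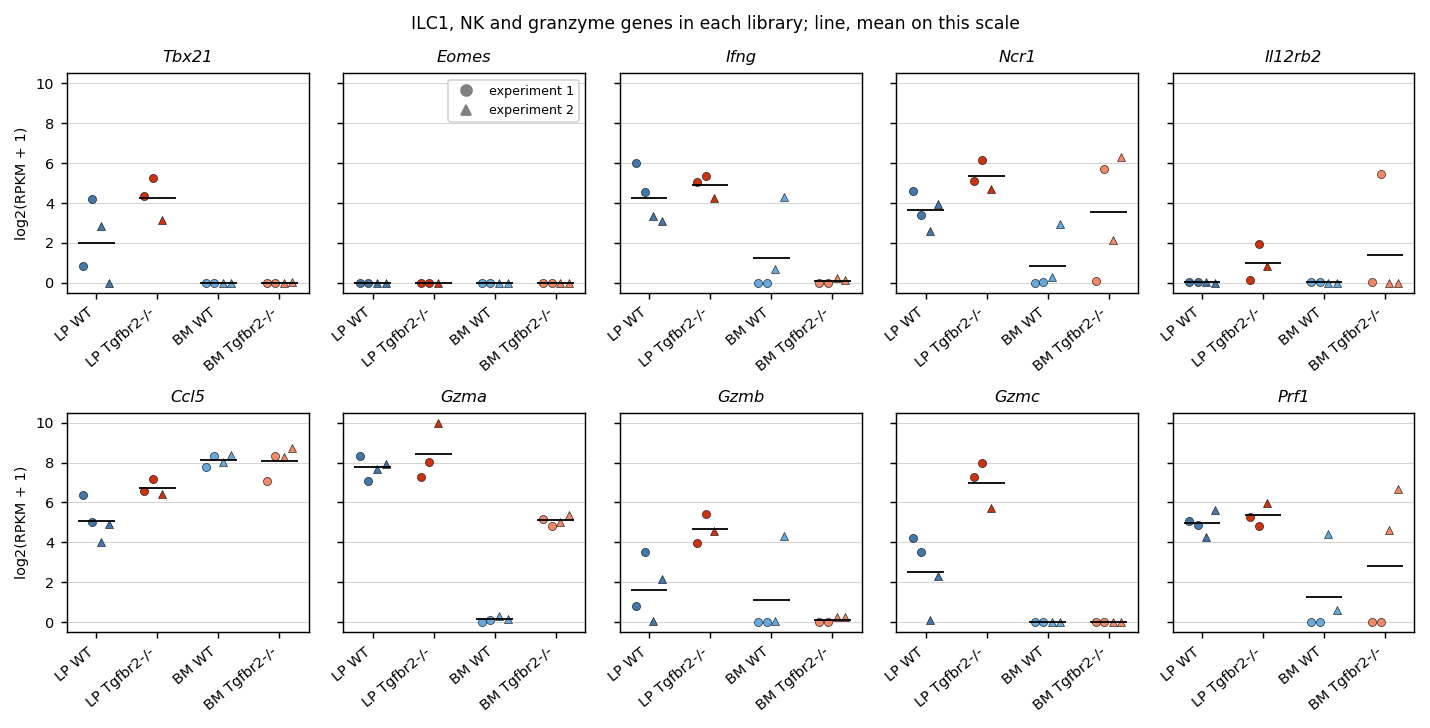
Level of each of the 10 members in every library, as log2(RPKM + 1), with circles for experiment 1, triangles for experiment 2 and a line at the group mean on that scale. Gzmc lies higher in the 3 LP Tgfbr2-/- libraries than in the 4 LP WT libraries and is at 0 in all 8 BM libraries, while Gzma in BM ILC2p lies near 0 in WT and between 27.7 and 39.9 RPKM in Tgfbr2-/-.

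In level, Gzma led in LP WT (227 ± 77.8 RPKM, SD, n = 4), followed by Ccl5 (39.6 ± 29.5), Prf1 (31.7 ± 12.1) and Ifng (25.6 ± 25.7). The last 3 do not differ beyond their spread. In LP Tgfbr2-/- libraries Gzma again had the highest mean (481 ± 476 RPKM, SD, n = 3), which rests on 1 library at 1027 RPKM, and Gzmc (151 ± 97.5) came second by mean, from sixth place in WT. Ccl5 (107 ± 30.6) lay within the spread of Gzmc and was above it in the library of experiment 2 (86.1 against 52.1 RPKM). In replicate 1 of experiment 1 Gzmc (154 RPKM) was just above Gzma (152 RPKM). In BM ILC2p, Ccl5 was the highest member in each of the 8 libraries, at 281 ± 52.6 RPKM in WT and 295 ± 120 RPKM in Tgfbr2-/- (SD, n = 4 each). The number of members at 1 RPKM or more was 6 to 9 per LP library and 1 to 4 per BM library.

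Between genotypes in LP ILC2s no member passed the threshold, which was an adjusted p under 0.1 and a fold change over 1.5. Of the 10 members, 8 passed the filter on low counts, and 0 of them were called, as were 0% of all 11981 genes, in edgeR's quasi-likelihood test, adjusted by Benjamini-Hochberg, with the experiment as a covariate. Of all genes, 557 had an unadjusted p under 0.05 in that fit, and DESeq2 called 338 genes (2.82%), Gzmc among them. By the values themselves, Tbx21, Ncr1, Gzmb and Gzmc had every Tgfbr2-/- library above every WT library of the same experiment on the scaled CPM, which was so for 6.79% of all genes tested. Il12rb2 did so too but was too low to be tested. The median log2 fold change of the 8 members was 1.40, against -0.01 over all genes. The members were chosen with earlier results of these data known, and the study had reported Tbx21, Ncr1 and Ccl5 higher in Tgfbr2-/- ILC2s. So nothing is read from this median or from the number of members with separated libraries. Epithelial markers moved with the genotype as well, though not all in the same direction. Their median log2 fold change was 3.55 over the 5 tested, with none called, and their sum over 6 markers was 3.26 and 7.99 RPKM in WT against 22.6 and 19.9 RPKM in Tgfbr2-/- libraries of experiment 1, and 61.3 and 207 against 498 RPKM in experiment 2. Krt18, a keratin gene (3.74, SE 0.81, edgeR adjusted p 0.877), was at 0.166, 0.143, 20.4 and 12.9 RPKM in WT and at 3.42, 6.40 and 68.3 RPKM in Tgfbr2-/- libraries. Krt8 (3.62, SE 1.32), Muc2 (3.55, SE 1.25) and Epcam (0.85, SE 0.53) were also higher by value, and Vil1 was lower (-0.72, SE 1.20). Fabp2, which was not tested, averaged 3.41 RPKM in WT and 3.23 RPKM in Tgfbr2-/- libraries. Igj of plasma cells was lower by value (-2.71, SE 0.61, edgeR adjusted p 0.877). The part of these cells in the members' levels was not tested.

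Tbx21 (chr11:96959385-96976645, minus strand, mm9), which encodes T-bet, was at 0.783, 17.4, 6.29 and 0 RPKM in LP WT and at 19.6, 37.5 and 7.86 RPKM in LP Tgfbr2-/- libraries. The Tgfbr2-/- libraries were higher within each experiment, but over both experiments the groups overlapped. Its log2 fold change was 1.48 (SE 1.35), with an adjusted p of 0.908 by edgeR. Eomes (chr9:118387330-118395250, plus strand, mm9), the second T-box factor of this program, had 0 counts in all 7 LP libraries, which allows up to 3 counts in each, so LP ILC2s showed T-bet transcripts in 6 of 7 libraries and Eomes transcripts in none.

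Ncr1 (chr7:4289326-4296766, plus strand, mm9), which encodes the activating receptor NKp46, was at 23.4, 9.44, 5.06 and 14.6 RPKM in LP WT and at 33.4, 71.2 and 25.5 RPKM in LP Tgfbr2-/- libraries. All 3 Tgfbr2-/- libraries were above all 4 WT libraries. The log2 fold change was 1.47 (SE 0.55) with an adjusted p of 0.898 by edgeR, and the exact two-sided permutation p of 0.0556 was the smallest that the 18 arrangements within experiments allow. Il12rb2 (chr6:67241312-67326182, minus strand, mm9), the signalling chain of the IL-12 receptor, had 1, 1, 1 and 0 counts in LP WT and 10, 263 and 28 counts in LP Tgfbr2-/- libraries. Scaled to total reads, the summed counts differed by a ratio of 98.3 (95% counting interval 33.3 to 479). That interval covers counting error only, the ratio was 22.2 (7.05 to 113) without replicate 2 of experiment 1, which held most of the counts, and the level stayed at or below 2.87 RPKM.

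Ifng (chr10:117878103-117882948, plus strand, mm9), the type 1 cytokine interferon-γ, was at 62.9, 22.5, 9.37 and 7.59 RPKM in LP WT and at 32.0, 39.9 and 18 RPKM in LP Tgfbr2-/- libraries. The groups overlapped, and the highest library of all was WT. Its log2 fold change of 0.21 (SE 0.52, edgeR adjusted p 0.98) became -0.39 without the Tgfbr2-/- library of experiment 2. Ccl5 (chr11:83339280-83344020, minus strand, mm9), a chemokine that draws T and NK cells, was at 82.5, 31.9, 15.2 and 28.8 RPKM in WT and at 92.8, 142 and 86.1 RPKM in Tgfbr2-/- libraries. The groups did not overlap in RPKM, by a narrow margin, and did overlap on the scaled CPM within experiment 1. Its log2 fold change was 1.33 (SE 0.51, edgeR adjusted p 0.898).

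Gzmc (chr14:56850238-56853493, minus strand, mm9), a granzyme of activated cytotoxic cells, had the largest log2 fold change of the 8 members tested. It was at 17.3, 10.4, 0.0696 and 4.03 RPKM in LP WT and at 154, 247 and 52.1 RPKM in LP Tgfbr2-/- libraries. The lowest Tgfbr2-/- library was above the highest WT library, and within experiment 2 the WT libraries were at most 4.03 RPKM. The log2 fold change was 4.10 (SE 0.82), with an adjusted p of 0.877 by edgeR and 0.0288 by DESeq2, and leaving out any 1 library kept it between 3.73 and 4.74.

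Gzmb (chr14:56877693-56881097, minus strand, mm9), the granzyme that cleaves caspases in target cells, was at 0.755, 10.3, 0.0459 and 3.41 RPKM in LP WT and at 14.9, 41.1 and 22.6 RPKM in LP Tgfbr2-/- libraries. Again the groups did not overlap. The log2 fold change was 2.89 (SE 1.24, edgeR adjusted p 0.898). Gzmb, Gzmc and Il12rb2 shared with Ncr1 the smallest permutation p the design allows (exact two-sided p = 0.0556).

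Gzma (chr13:113884033-113891187, minus strand, mm9), an abundant tryptase of NK cell granules, was at 323, 136, 207 and 243 RPKM in LP WT and at 152, 263 and 1027 RPKM in LP Tgfbr2-/- libraries. The groups overlapped, and the Tgfbr2-/- library of experiment 2 was far above the rest. That library also had the highest sum over 6 epithelial markers (498 RPKM, led by Krt8, against 3.26 to 207 RPKM in the other LP libraries), whose part in the result was not tested. The log2 fold change of Gzma was 0.78 (SE 0.56) and became -0.27 without that library. Prf1 (chr10:60760584-60767011, plus strand, mm9) was at 32.4, 28.3, 18.5 and 47.7 RPKM in WT and at 37.9, 27.5 and 62.1 RPKM in Tgfbr2-/- libraries. These groups overlapped as well, with a log2 fold change of 0.35 (SE 0.38) that became -0.030 without the same library.

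**Figure D2:**
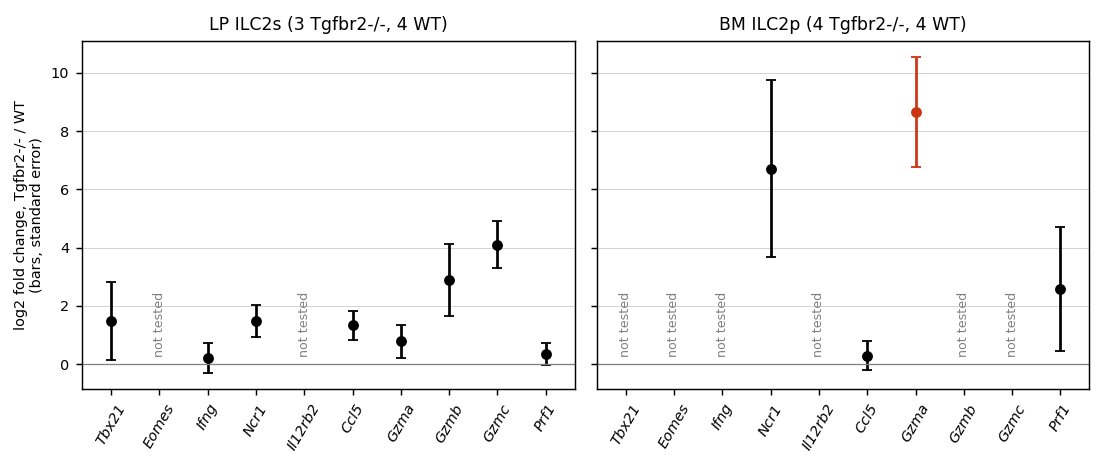
Log2 fold change of Tgfbr2-/- over WT for each member that passed the filter on low counts, from edgeR, with bars of 1 standard error; the called member is in red. In LP ILC2s Gzmc has the largest value (4.10, not called), and in BM ILC2p Gzma is the called member (8.66).

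Granzymes of the chromosome 14 cluster did not all have the pattern of Gzmc. Gzme was at 0.101, 0.109, 0 and 0 RPKM in LP WT and at 4.79, 4.28 and 1.57 RPKM in LP Tgfbr2-/- libraries. Gzmg was at 0.204, 0.110, 0 and 0.0899 RPKM in WT and at 1.91, 2.44 and 0.654 RPKM in Tgfbr2-/- libraries. Both were higher in all 3 Tgfbr2-/- libraries than in any WT library, at levels far below Gzmc. Neither was called (edgeR adjusted p 0.877 and 0.898). Gzmd reached 2, 4 and 2 counts in the 3 libraries labelled Tgfbr2-/- and 0 in WT, Gzmf had at most 1 count in any LP library, and Gzmn, between Gzmf and Gzmg, had 0 counts in all 15 libraries.

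**Figure D3:**
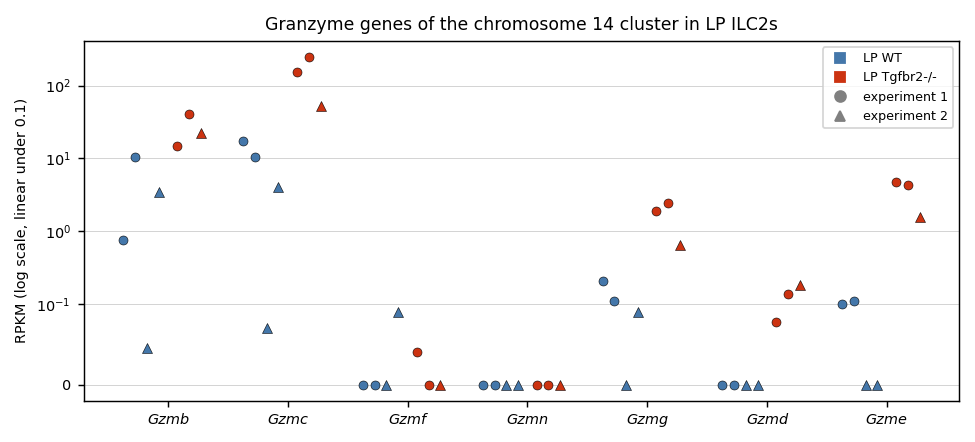
Level of the 7 granzyme genes of the chromosome 14 cluster in each LP ILC2 library, in RPKM on a log scale that is linear under 0.1, with WT in blue, Tgfbr2-/- in red, circles for experiment 1 and triangles for experiment 2. Gzmb, Gzmc, Gzmg and Gzme are higher in the 3 Tgfbr2-/- libraries than in the 4 WT libraries, and Gzmn is at 0.

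In BM ILC2p, Gzma was the member called between genotypes, with a log2 fold change of 8.66 (SE 1.90) and an adjusted p of 0.0568 by edgeR. It had 0, 1, 7 and 3 counts in the WT libraries (0, 0.0792, 0.252 and 0.102 RPKM), whereas Tgfbr2-/- libraries held 346, 245, 630 and 1079 counts (35.6, 27.7, 31.8 and 39.9 RPKM). The 4 Tgfbr2-/- libraries were close to each other and all far above WT. With 11 counts over the 4 WT libraries, Gzma passed the filter on low counts through the Tgfbr2-/- libraries, where it is high, and its fitted fold change rests on those few counts. Of the 10 members 4 passed the filter and 1 was called, where 3.47% of 9242 genes were called, and nothing is read from that number, since Gzma entered through the group where it is high. By the values, Gzma was the 1 member of these 4 with every Tgfbr2-/- library above every WT library of its experiment, as were 7.8% of all genes tested. Nothing is read from that either, since passing the filter through the Tgfbr2-/- libraries already required higher values in them. The exact two-sided permutation p of 0.0556, the smallest that the 36 arrangements allow, restates the same separation. The call was lost when any 1 library was left out (adjusted p 0.101 to 0.213) and in each experiment alone, with log2 fold changes of 7.86 to 9.45, and with libraries of the same number as a replicate block (8.77, edgeR adjusted p 0.183). Over 9 alternative fits, with other methods, scalings, filters and designs, the log2 fold change was 4.96 to 9.45.

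Markers of myeloid cells moved with Gzma in BM ILC2p. The sum over 6 myeloid markers was 89007 to 106460 RPKM in the Tgfbr2-/- libraries and 454 to 1267 RPKM in the WT libraries, and 4 of the 6 were called higher, S100a9 and S100a8 (the subunits of calprotectin) and Lyz2 (lysozyme) with log2 fold changes of 8.34, 8.20 and 8.09. S100a8 alone was at 54984 to 68689 RPKM in the Tgfbr2-/- libraries, and no myeloid marker was at 0 in any BM library. The sum over 7 basophil and mast cell markers was 923 to 1224 RPKM in Tgfbr2-/- and 120 to 200 RPKM in WT libraries, with Fcer1a, Prss34 and Mcpt8 called higher (8.64, 8.33 and 7.71) and Mcpt1 and Mcpt2 at 0 in all of them. The other genes of that list were not called, Cpa3 (-0.020, SE 0.49), a mast cell protease at 139 ± 52.7 RPKM in WT and 121 ± 37.1 RPKM in Tgfbr2-/- libraries (SD, n = 4 each), and Kit (0.49, SE 0.99). The sum over 9 ILC2 markers was lower in Tgfbr2-/- libraries, with Il1rl1, the IL-33 receptor ST2 (-1.96), and Gata3 (-1.41) called lower. B and plasma cell markers summed to 293, 4.15, 333 and 116 RPKM in the Tgfbr2-/- libraries and 1.30 to 42.3 RPKM in the WT libraries, led by the J chain gene Igj at 249 and 276 RPKM in the highest 2, with Ms4a1 at 0 in all 8 and no marker of that list called. Antibodies to CD11b, CD11c and Gr-1, which mark myeloid cells, and to B220, which marks B cells, belong to the lineage mix that the study's methods give for ILC staining, so the Lin- gate was meant to remove them. The part of these cells in the level of Gzma was not tested, and in bulk samples fewer cells of a type and less RNA per cell cannot be told apart. In LP ILC2s, where Gzma was higher than in BM ILC2p, the myeloid sum was 0 to 103 RPKM with Elane and Mpo at 0 in all 7 libraries.

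**Figure D4:**
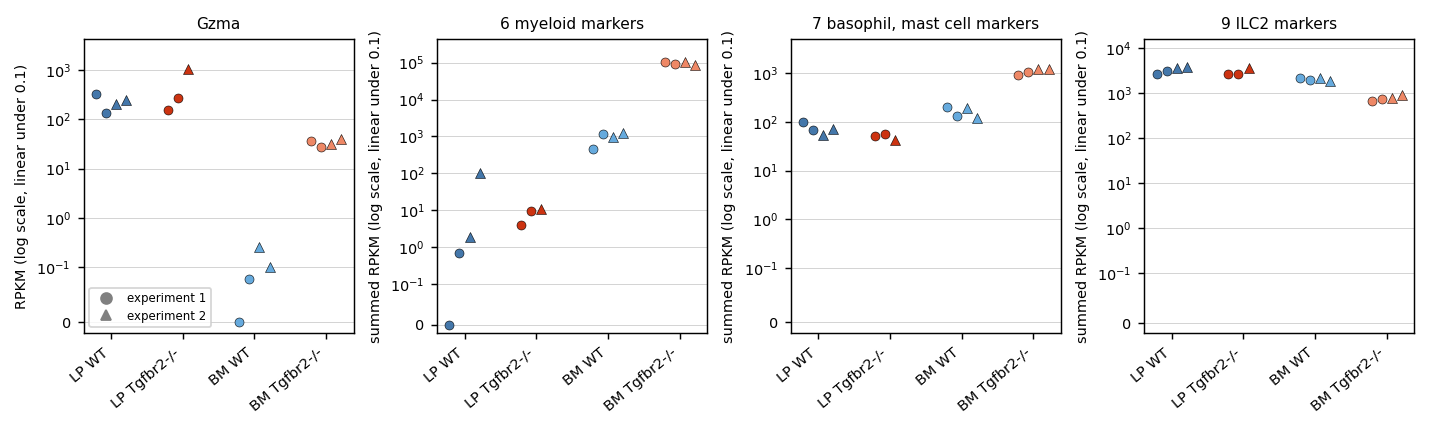
Level of Gzma and summed levels of myeloid, basophil and mast cell, and ILC2 markers in each library, in RPKM on log scales that are linear under 0.1, with circles for experiment 1 and triangles for experiment 2. In BM Tgfbr2-/- libraries Gzma, the myeloid sum and the basophil and mast cell sum are all above BM WT, and the ILC2 sum is below it.

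The other members in BM ILC2p were uneven between libraries of the same group. Ncr1 was at 0, 0.0475, 0.238 and 6.79 RPKM in WT and at 0.0617, 51.3, 3.39 and 78.2 RPKM in Tgfbr2-/- libraries. A pair of Tgfbr2-/- libraries, 1 of each experiment, were far above the other 6 BM libraries. The log2 fold change was 6.71 (SE 3.03), with an adjusted p of 0.539 by edgeR and 0.00337 by DESeq2. Prf1 was at 0 in all 4 libraries of experiment 1, and in experiment 2 it was at 20.1 and 0.510 RPKM in WT and at 23.2 and 102 RPKM in Tgfbr2-/-. It was thus seen in 1 experiment only, in both genotypes. Ccl5 was at 217, 317, 260 and 331 RPKM in WT and at 132, 322, 305 and 420 RPKM in Tgfbr2-/-, groups that overlapped in both experiments. Its log2 fold change was 0.29 (SE 0.50, edgeR adjusted p 0.943).

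The other 6 members were too low or too scattered in BM ILC2p to be tested. Ifng was at 0, 0, 0.629 and 18.8 RPKM in WT and at 0, 0, 0.184 and 0.108 RPKM in Tgfbr2-/- libraries. Gzmb was at 0, 0, 0.0447 and 19.1 RPKM in WT and at 0, 0, 0.188 and 0.184 RPKM in Tgfbr2-/- libraries. A single WT library, replicate 2 of experiment 2, thus held most of the counts of both genes, a library in which the T cell genes Cd3d (20.9 RPKM), Cd8b1 (13 RPKM) and Cd8a (9.97 RPKM) were seen while Cd3e was at 0.708 RPKM. Cd8a was at 7.25 RPKM also in replicate 1 of that experiment, where Ifng and Gzmb were low. The lineage mix holds antibodies to CD3 and CD5, and the part of T cells was not tested. Il12rb2 was at 43.0 RPKM (1276 counts) in replicate 2 of experiment 1 of Tgfbr2-/- and had at most 1 count in each of the other 7 BM libraries. That library held Cd3d at 31.8 RPKM and Lat at 134 RPKM. Cd8a, Cd3g and Cd5 were at 0 in it, Cd3e at 0.0692, Cd4 at 0.0321 and Cd8b1 at 0.0702 RPKM. It was also 1 of the pair of Tgfbr2-/- libraries with high Ncr1, while Ifng, Gzmb and Prf1 were at 0 in it. Itga2 was at 10.2 RPKM there and Itga1 at 0. The part of T or NK cells was not tested. Gzmc had 0 counts in all 8 BM libraries, Tbx21 had 1 count in 1 library of each genotype, and Eomes had 1 count in 1 WT library. At these depths Gzmc, Tbx21 and Eomes were not detectable above 3 counts per library in BM ILC2p.

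The effect of the genotype on Gzma differed between the cell types. The log2 genotype effect in LP ILC2s minus that in BM ILC2p was -7.69 (SE 1.05, edgeR adjusted p 0.0052), in a fit over all 15 libraries in which 0.992% of 12806 genes were called. It stayed called whichever library was left out (adjusted p at most 0.0471). Over 5 alternative fits to all libraries it was -7.88 to -4.13, and it stayed called in each. This difference rests on the Gzma values given above for each cell type, and so it moves with the same myeloid and basophil markers in BM Tgfbr2-/- libraries. The median over all genes was 0.31 in this fit and 0.60 with scaling by library size, so -7.69 is to be read against that shift. Of the 9 members tested it was the 1 called, and nothing is read from that number, for the reason given above. Ncr1 (-5.09, SE 2.87), Prf1 (-2.42, SE 1.72), Ccl5 (1.05, SE 0.77), Ifng (5.58, SE 2.15) and Gzmb (7.80, SE 3.35) were not called. Gzmc, Tbx21 and Il12rb2 gave no usable difference, since each was at or under 3 counts in every library of at least 1 group compared.

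Between cell types in WT, Gzma was higher and Ccl5 lower in LP ILC2s. Of the 6 members tested these 2 were called, where 2.56% of 10468 genes were called. Gzma, with 13884 counts in LP WT against 11 in BM WT, passed the filter through the LP libraries, where it is high, so nothing is read from the number called. The log2 difference, LP ILC2s minus BM ILC2p, was 10.84 for Gzma (SE 0.82, edgeR adjusted p 0.000246) and -2.72 for Ccl5 (SE 0.59, edgeR adjusted p 0.0526). Every LP WT library was above every BM WT library for Gzma and below every one for Ccl5. The call of Ccl5 was lost on leaving out 6 of the 8 libraries in turn (replicate 2 of experiment 1 and both of experiment 2 in each cell type), with values of -2.75 to -2.43. Ifng (2.64, SE 2.00), Ncr1 (3.09, SE 1.83), Prf1 (2.67, SE 1.85) and Gzmb (-0.19, SE 2.27) were not called. Gzmc, with 588 counts over the 4 LP WT libraries and 0 over the 4 BM WT libraries, was at least 45.6-fold higher in LP ILC2s, taking 3 counts per library as the floor. Without replicate 1 of experiment 1 that limit was 27.7-fold, and 1 of the 4 LP WT libraries held a single count. Tbx21, with 1173 counts against 1, had a ratio of 1550 (95% counting interval 277 to 61200), which was 538 (95.7 to 21300) without replicate 2 of experiment 1, and 1 LP WT library was at 0. The exact two-sided permutation p for Gzma, Ccl5 and Gzmc was 0.0286, the smallest that 70 arrangements allow, and it was 0.143 for Tbx21. Markers of other cells differed as well, with 4 of 5 myeloid and 2 of 4 basophil and mast cell markers called lower in LP ILC2s. Called higher were 2 of 4 B and plasma cell markers and 1 of 5 ILC3 markers, Il22. Elane and Mpo were at 0 in LP WT and Il22 at 0 in BM WT, so nothing is read from these numbers. The part of such cells in the members' levels was not tested.

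Between cell types in Tgfbr2-/- libraries, Tbx21, Ifng, Gzma, Gzmb and Gzmc were called higher in LP ILC2s, and no member was called lower. These are 5 of the 9 members tested, where 13.7% of 11469 genes were called in either direction and 9.13% higher in LP ILC2s. Tbx21, Ifng, Gzmb and Gzmc passed the filter through the LP libraries, where they are high, with 1, 9, 14 and 0 counts over the 4 BM libraries, so nothing is read from the number called. The log2 differences were 8.22 for Ifng (SE 1.89, edgeR adjusted p 0.0282), 7.70 for Gzmb (SE 1.93, edgeR adjusted p 0.0361) and 3.43 for Gzma (SE 0.67, edgeR adjusted p 0.0244). Gzma was no longer called without the LP Tgfbr2-/- library of experiment 2 (2.32, edgeR adjusted p 0.16), nor was Gzmb on leaving out any 1 of the 3 LP libraries. The call of Gzma was also lost in at least 1 of 7 alternative fits, with log2 differences of 2.56 to 4.10 over them. Gzmc (11728 counts against 0) was at least 706-fold higher, or at least 483-fold without replicate 2 of experiment 1, and Tbx21 (4592 counts against 1) had a ratio of 4850 (95% counting interval 871 to 192000), or 3050 (547 to 121000) without replicate 2 of experiment 1. Ncr1 (-0.00103, SE 1.62), Prf1 (0.00984, SE 2.14) and Il12rb2 (-3.40, SE 3.20) were not called, and neither was Ccl5 (-1.80, SE 0.60, edgeR adjusted p 0.113). At least 1 of 7 alternative fits did call Ccl5 lower, with log2 differences of -1.96 to -1.18 over them. The median over all genes was -0.27 in this comparison, and 0.11 or 0.34 with scaling by library size or upper quartile. Markers of other cells differed as well, with 6 of 6 myeloid and 4 of 5 basophil and mast cell markers called lower in LP ILC2s. Called higher were 4 of 7 ILC3, 3 of 5 T cell, 1 of 5 B and plasma cell and 1 of 3 epithelial markers. Elane and Mpo were at 0 in LP ILC2s and Il22, Il17a and Il17f at 0 in BM ILC2p, so nothing is read from these numbers. The part of such cells in the members' levels was not tested. Cell type, tissue, sort gate, intact or chimeric mice and experiment cannot be told apart in either comparison of the cell types.

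The labelled experiments differed for some genes but for no member by the threshold. In LP ILC2s 0 of 8 members were called between experiments, where 0.977% of genes were called. Ifng was lower in experiment 2 by value (log2 difference -1.97, SE 0.56, edgeR adjusted p 0.174), and so was Gzmc (-2.61, SE 0.84, edgeR adjusted p 0.232). Epithelial markers were higher in experiment 2, with 4 of 5 called, among them Muc2, Vil1 and Krt8 (log2 difference 8.24). These calls were lost on leaving out any 1 library of experiment 2, when 0 genes were called higher. Leaving out any 1 library of experiment 1 left at most 2 genes called higher, so not all 4 epithelial calls held there. Muc2 had at most 1 count in each library of experiment 1 and 17, 146 and 1031 counts in experiment 2, and Vil1 at most 1 count against 79, 121 and 93. The sum over 7 ILC3 markers, led by Il22 in all but 1 library, was 191 to 433 RPKM in experiment 1 and 20.8 to 133 RPKM in experiment 2. Their part in the members' levels was not tested. In BM ILC2p 0 of 4 members and 0% of 9242 genes were called between experiments by edgeR, with 288 genes at an unadjusted p under 0.05 and 397 genes called by DESeq2.

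Other genes of the ILC1 and NK program were taken from lists. These were chosen with earlier results of these data known, so nothing is read from their medians. In LP ILC2s none of them was called between genotypes by edgeR. The median log2 fold change was 1.64 over 12 NK receptors and adaptors, 0.52 over 8 other effector cytokines and death ligands, 0.15 over 10 genes of IL-12, IL-15 and IL-18 signalling, 0.03 over 10 genes of the granule machinery, -0.06 over 6 surface and homing genes and -0.09 over 9 transcription factors, against -0.01 over all genes. The 2 most abundant genes of each list by mean RPKM are given next, with BM means over libraries of both genotypes unless stated. Of the 10 granule genes these were Srgn and Nkg7. Srgn, the granule proteoglycan serglycin, was at 1333 ± 160 RPKM in LP ILC2s (SD, n = 7) and at 798 ± 191 RPKM in BM ILC2p (SD, n = 8), and Nkg7, a granule membrane protein, at 796 ± 105 RPKM in LP ILC2s. In BM ILC2p Nkg7 was at 52.9 ± 49.2 RPKM in WT and 319.95 ± 123 RPKM in Tgfbr2-/- libraries (SD, n = 4 each), beside the myeloid markers, and it was not called between genotypes there. Il2rg, the common γ chain, was at 1351 ± 370 and 1019 ± 472 RPKM. Il2rb, the β chain of the IL-2 and IL-15 receptors, was at 241 ± 108 RPKM in LP ILC2s.

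Of the 9 transcription factors Id2 and Bhlhe40 were the most abundant. Id2, which blocks E proteins, was at 1317 ± 248 RPKM in LP ILC2s (SD, n = 7) and 1605 ± 693 RPKM in BM ILC2p (SD, n = 8), and Bhlhe40 at 751 ± 45.8 and 256 ± 187 RPKM. Among receptors and adaptors Hcst, which encodes the NKG2D adaptor DAP10, was at 280 ± 56.7 and 250 ± 83.7 RPKM, and Cd226 at 22.3 ± 10.4 RPKM in LP ILC2s. Tyrobp was above Hcst over all BM libraries (616 ± 648 RPKM), through the Tgfbr2-/- libraries. Among surface genes the chemokine receptor gene Cxcr6 was at 296 ± 89.2 and 311 ± 209 RPKM, and Cd27 at 120 ± 22.0 and 63.9 ± 44.6 RPKM. The leading effectors were Csf2 (GM-CSF, 688 ± 200 RPKM) and Tnf (53.5 ± 10.5 RPKM) in LP ILC2s, and the chemokine genes Ccl4 (62.6 ± 57.6 RPKM) and Ccl3 (55.4 ± 62.8 RPKM) over all BM libraries. In BM WT alone Csf2 (72.2 ± 28.2 RPKM) was above Ccl4 (31.1 ± 48.7 RPKM) and Ccl3 (17.8 ± 21.8 RPKM), and in BM Tgfbr2-/- libraries, which held the myeloid markers, Ccl4 was at 94.2 ± 52.1 and Ccl3 at 93.1 ± 70.2 RPKM (SD, n = 4 each).

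Between genotypes in BM ILC2p, where 3.47% of all genes were called, 2 of 6 NK receptors and adaptors were called higher in Tgfbr2-/- libraries, Fcgr3 (7.73, SE 0.95, edgeR adjusted p 0.00245) and Tyrobp (7.20, SE 0.59, edgeR adjusted p 0.000232). Both encode proteins that myeloid cells use as well, an Fcγ receptor and the adaptor DAP12, and both moved with the myeloid markers. Id2 (-0.96, 1 of 9 transcription factors) and Cxcr6 (-1.82, 1 of 2 surface genes) were called lower. None of 10 granule genes, 10 genes of IL-12, IL-15 and IL-18 signalling or 6 other effectors was called by edgeR, and no other granzyme passed the filter. The effect on Fcgr3 also differed between the cell types (-7.00, edgeR adjusted p 0.0965).

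Between cell types in WT, Srgn (1.02), Ets1 (0.97), Bhlhe40 (0.87) and Csf2 (3.54) were called higher in LP ILC2s and no gene of these lists lower, where 2.56% of all genes were called in either direction. These were 1 of 10 granule genes, 2 of 9 transcription factors and 1 of 7 other effectors tested, with 0 of 10 genes of IL-12, IL-15 and IL-18 signalling, 0 of 8 receptors and adaptors and 0 of 4 surface genes. In Tgfbr2-/- libraries, where 13.7% of all genes were called, Il2rb (6.14), Ets1 (1.58) and Csf2 (3.92) were called higher in LP ILC2s. Also called higher there were genes that passed the filter through the LP libraries, with 1 to 19 counts in all over the 4 BM libraries. They were Gzme (262 counts in LP ILC2s against 1), Gzmg (124 against 1), Klrc1 (928 against 2), Cd244 (384 against 1), Cxcr3 (3271 against 19) and Fasl, the gene of the death ligand FasL (842 against 1). Nothing is read from the number of these genes, here or in the counts by list below. Tyrobp (-6.35), Fcgr3 (-6.07), Ccl4 (-3.98) and Stxbp2 (-1.27), a gene of granule fusion, were called lower there. By list, 2 of 2 other granzymes, 1 of 10 signalling genes, 1 of 9 transcription factors, 2 of 11 receptors and adaptors, 1 of 5 surface genes and 2 of 8 other effectors tested were called higher, and 1 of 10 granule genes, 2 receptors and adaptors and 1 other effector lower. Between experiments in LP ILC2s Il2rb was called lower in experiment 2 (-1.20, edgeR adjusted p 0.0815). That call was lost without either WT library or Tgfbr2-/- replicate 2 of experiment 1, when 0 genes were called lower. It was also lost without WT replicate 1 or the Tgfbr2-/- library of experiment 2, when 0 genes were called.

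Within LP ILC2s the members did not all vary together. As a description over 7 libraries (4 WT and 3 Tgfbr2-/-) that differ in genotype, experiment and depth, Pearson's r between log2 levels was 0.96 for Ncr1 and Ccl5, 0.938 for Ccl5 and Gzmc, 0.935 for Ncr1 and Gzmc and 0.839 for Gzmb and Gzmc. Gzma had r of 0.616 to Prf1, 0.201 to Gzmc and 0.18 to Gzmb, and the lowest r of any pair was -0.306 for Tbx21 and Prf1. The genes most like each member by this measure were Cklf, Bloc1s3 and Clasp2 for Tbx21 (0.99, 0.987 and 0.981) and Cited4, 4930539J05Rik and Mir1982 for Ifng (0.991, 0.99 and 0.98). For Ncr1 they were Eif3k, Ccl5 and Nfkb2 (0.967, 0.96 and 0.957), and for Ccl5 they were Snx18, A430078G23Rik and Ncr1 (0.974, 0.969 and 0.96). Among the granule genes, Gzma was most like Cybb, B2m and Ivns1abp (0.959, 0.94 and 0.932), and Gzmb was most like Gldc, Slc35e3 and Klrb1b (0.943, 0.94 and 0.938). Gzmc was most like Fam188a, Iah1 and Tmtc2 (0.979, 0.974 and 0.955), and Prf1 was most like Gstm4, 0610039K10Rik and Slc9a2 (0.968, 0.874 and 0.869). Over the 8 BM libraries Gzma was most like Gm4763, Gapt and Chil1 (0.999, 0.999 and 0.997) and Ncr1 was most like Tmed9, Aldh1a7 and A530088E08Rik (0.983, 0.977 and 0.963). Ccl5 was most like Kantr, Hspa4 and Cep83 there (0.972, 0.957 and 0.957), and Prf1 was most like Lyst, 2010012O05Rik and Polrmt (0.997, 0.978 and 0.96).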

How the data were processed

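Per the file headers and the study's methods, the authors used TopHat to map reads to mm9 and retained those with several hits, and the processing notes list Bowtie2. The authors then ran rpkmforgenes on RefSeq transcripts and deposited, for each library, a whole-number read count and an RPKM per gene entry over the full transcript. Columns left unmapped to a sample numbered 0. Files were assigned by GEO's sample record, although run numbers in the names of the 4 BM files of experiment 1 and replicate numbers in those of the 2 LP Tgfbr2-/- files of experiment 1 differ from the sample titles. Depth was 10957021 to 35961215 counts per library, and intervals and floors (3 counts) cover counting error only.

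Counts were fitted with edgeR 4.0.16 (quasi-likelihood, TMM factors, filterByExpr) in R 4.3.3, with the experiment as a covariate for genotype comparisons, and genes were called at an adjusted p under 0.1 with a fold change over 1.5, adjusted by Benjamini-Hochberg over all genes tested. The 10 members and all lists were chosen with earlier results of these data known. All members were named with values. Of each list the count called, at most 3 called genes with the largest change (others named were chosen after their values were seen) and the 2 most abundant per cell type were named, and per member the 3 genes with the highest r, except for genes that are not reported here. Exact two-sided permutation tests used log2(CPM + 1), within experiments for genotypes.

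The fits were repeated with DESeq2 1.42.0, with limma 3.58.1 (on log2 of RPKM + 1, or voom), with other scalings and filters, single experiments, a replicate block and without each library in turn. Replicate numbers did not pair libraries (r of replicate differences between genotypes -0.0472, -0.0104 and -0.0271). Python 3.11.15, numpy 2.4.6, pandas 2.3.3, scipy 1.17.1 and matplotlib 3.10.9 were used for the rest. Gene positions are from the NCBIM37 (mm9) annotation, and promoters are from RefSeq on GRCm38.p6.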

Additional observations from a re-analysis of the deposited data

Results flagged for a closer look

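In 5 of the 21 sets of a member and a group of 4 libraries that were examined, 1 library lay far from the other 3, by its gap to the nearest of them over the group's whole range. For normally distributed values chance sets aside about 1 in 20 such groups, and no rate was computed for groups that hold values at 0 as these do. In BM WT, replicate 2 of experiment 2 stood apart for Ifng (18.8 RPKM), Gzmb (19.1 RPKM) and Ncr1 (6.79 RPKM), and replicate 1 of experiment 2 for Prf1 (20.1 RPKM). In BM Tgfbr2-/-, replicate 2 of experiment 1 stood apart for Il12rb2 (43.0 RPKM). All of these were BM ILC2p libraries, in which 1.54% to 14% of well expressed genes were under 1 CPM. The genotype effect on Gzma differed between the cell types, by -7.69 on the log2 scale for LP ILC2s minus BM ILC2p (edgeR adjusted p 0.0052), beside the myeloid and basophil markers that differed between genotypes in BM ILC2p, whose part was not tested.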

How the results depend on the processing

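Over all alternatives to the log2 fold changes of single members, 522 kept direction and side of the threshold, 23 lost a call, 11 gained one and 31 changed sign. The cause of these changes was not tested. Between genotypes in LP ILC2s (0 genes called), DESeq2 called 338 genes and 1 member and the fit with no filter on low counts called 3 genes. In BM ILC2p (321 genes, 1 member), DESeq2 called 1229 genes and 2 members. The replicate block left 175 genes there and 0 in LP ILC2s, with 0 members called in both, although the numbers do not pair the libraries. A minimum of 10 counts in every library left 199 genes, experiment 1 alone 38 and experiment 2 alone 77, each with 0 members, as did no filter and the stricter threshold (adjusted p under 0.05, fold change over 2). Gzma cannot pass the minimum of 10 counts.

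For the difference of genotype effects (127 genes, 1 member), DESeq2 called 1518 genes and 2 members, library size scaling 196 genes, upper quartile scaling 203, no filter 259, limma 382 genes and 2 members, the stricter threshold 68 genes, and a minimum of 10 counts 0 members. Higher and lower calls split 60 to 67, against 131 to 65 with library size and 146 to 57 with upper quartile scaling, whose median over all genes was 0.66. Between cell types in WT (268 genes, 2 members), DESeq2 called 604 genes, no filter 176, limma 436, the random block 533 genes and 4 members, the stricter threshold 174 genes and 1 member, and a minimum of 10 counts 1 member. In Tgfbr2-/- libraries (1575 genes, 5 members) that minimum left 389 genes and 1 member, and the split was 1047 to 528, against 1233 to 357 with upper quartile scaling. DESeq2 called 2236 genes and 6 members there, limma 2205 genes and 6 members, the random block 2288 genes and 5 members, and no filter 1178 genes and 5 members. Between experiments in LP ILC2s (117 genes, 0 members), DESeq2 called 1347 genes and 1 member, library size scaling 23 genes, upper quartile scaling 31, no filter 320 and the stricter threshold 5, and the split of 34 to 83 became 13 to 10 with library size scaling. In BM ILC2p (0 genes) DESeq2 called 397 genes and 1 member and no filter 5 genes and 1 member. The split between genotypes in BM ILC2p was 241 to 80, against 217 to 111 and 203 to 119, with medians over all genes of -0.10, -0.31 and -0.40.

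Leaving out each library in turn gave 0 to 0 genes between genotypes in LP ILC2s, 179 to 319 genes and 0 to 0 members in BM ILC2p, 14 to 407 genes and 1 to 1 member for the difference of effects, 95 to 370 genes and 1 to 2 members between cell types in WT, 1095 to 2384 genes and 3 to 6 members in Tgfbr2-/- libraries, and 0 to 10 genes between experiments in LP ILC2s.

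Signs changed as follows, on the log2 scale. Between genotypes in LP ILC2s, experiment 1 alone gave -0.38 for Ifng, -0.26 for Gzma and -0.011 for Prf1, and leaving out libraries gave -0.39 to 0.85, -0.27 to 1.38 and -0.030 to 0.56. Ccl5 in BM ILC2p was -0.066 with upper quartile scaling, -0.029 with limma and -0.039 in experiment 1 alone. Between cell types, Gzmb in WT was 0.53 with limma and 2.89 with the random block (-1.64 to 7.32 on leaving out libraries). In Tgfbr2-/- libraries Ncr1 was 0.41 with library size and 0.69 with upper quartile scaling, 1.78 with limma and 2.43 with the random block (-0.63 to 0.99), and Prf1 was -0.088 with DESeq2 and -0.080 with no filter (-0.36 to 2.29). Between experiments in LP ILC2s leaving out libraries gave -0.29 to 1.38 for Gzma, -2.14 to 0.20 for Gzmb and -0.12 to 0.64 for Prf1.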

Other observations

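Gzmk and Gzmm, granzymes outside the 10 members, had most of their counts in a few libraries. Gzmk, a tryptase gene beside Gzma on chromosome 13, was at 6.71 RPKM (120 counts) in BM Tgfbr2-/- replicate 1 of experiment 2 and had at most 1 count in any other library. Gzmm was at 3.0 RPKM (83 counts) in LP WT replicate 1 of experiment 1 and at 1.38 RPKM (56 counts) in BM WT replicate 1 of experiment 2, and had 12, 19 and 3 counts in the LP Tgfbr2-/- libraries.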
